A study of Mus musculus with 18 samples.

Results

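The baseline of the unexposed mouse larynx was read from the room air libraries, which are 6 of the 18 libraries in the series. They were taken by their labels and by the columns of the deposited count table that carry their names, and no measured value entered the choice. Exposed mice breathed smoke of 3R4F research cigarettes (6 libraries) or aerosol of JUUL Virginia tobacco e-cigarettes (6 libraries), while the baseline mice breathed room air. All were male C57BL6/J mice aged 8 to 9 weeks, held in an inEXPOSE whole-body chamber for 1 hour a day and 5 days a week during 4 weeks, so the air mice shared the chamber and the handling. RNA came from whole larynges, and the labels do not say whether a library is 1 animal or a pool.

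The larynx is both the valve between the airway and the food passage and the organ of the voice. Small, fast-contracting skeletal muscles move its cartilages. Its lining is stratified squamous epithelium over the vocal folds and pseudostratified, ciliated and secretory epithelium elsewhere, and seromucous glands beneath the lining keep it moist. The thyroid gland, with its calcitonin-producing C cells, and the parathyroid glands lie against its outer wall.

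Total counts ran from 15.6 to 17.1 M (median 16.3 M) in the air libraries, and 23735 to 26788 of the 54532 genes in the table had a count in a library. Smoke libraries held 15.9 to 20.3 M and e-cigarette libraries 16.7 to 22.5 M counts. Levels are compared between genes only in TPM, the count divided by the deposited gene length and scaled to 1 M per library. Levels of 1 gene across libraries are given in TPM where abundance is described and in CPM where variation is described. CPM are counts scaled to 1 M with TMM-scaled library sizes over the 6 air libraries. Libraries can rank differently in TPM and in CPM. The libraries are called air 1 to air 6, and these numbers are names only. The libraries stood apart from each other in some sets of transcripts: air 3 in ribosomal RNA-like and immediate early genes, air 4 in parathyroid genes, and air 5 and air 6 in gland genes. Results that rest on them are given with and without them where leaving them out changed the call.

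Abundance was concentrated in few genes. The 50 most abundant genes by mean TPM held 38.3% of the mean TPM. With the genes ranked within each library, the first 50 held 38.8% ± 5.66 of its TPM (SD, n = 6), from 32.3% in air 5 to 49.1% in air 3. Ranked in the same way, the first 10 held 19.4% to 33.4% and the first 1000 held 66.3% to 74.7%. On the mean, 190 genes held 50% of all TPM, and 17400 genes reached 1 TPM. Air 3 was the most concentrated library, with 50% of its TPM in 57 genes, against 160 to 269 in the other libraries. A single very short gene, Gm23935 (described below), alone held 165246 TPM of air 3. Of the 50 genes by mean TPM, 11 belonged to the fast skeletal muscle list, 9 to the airway secretory list, 9 to the mitochondrial genome and 6 to the seromucous gland list, while 6 were in no list.

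**Figure D1:**
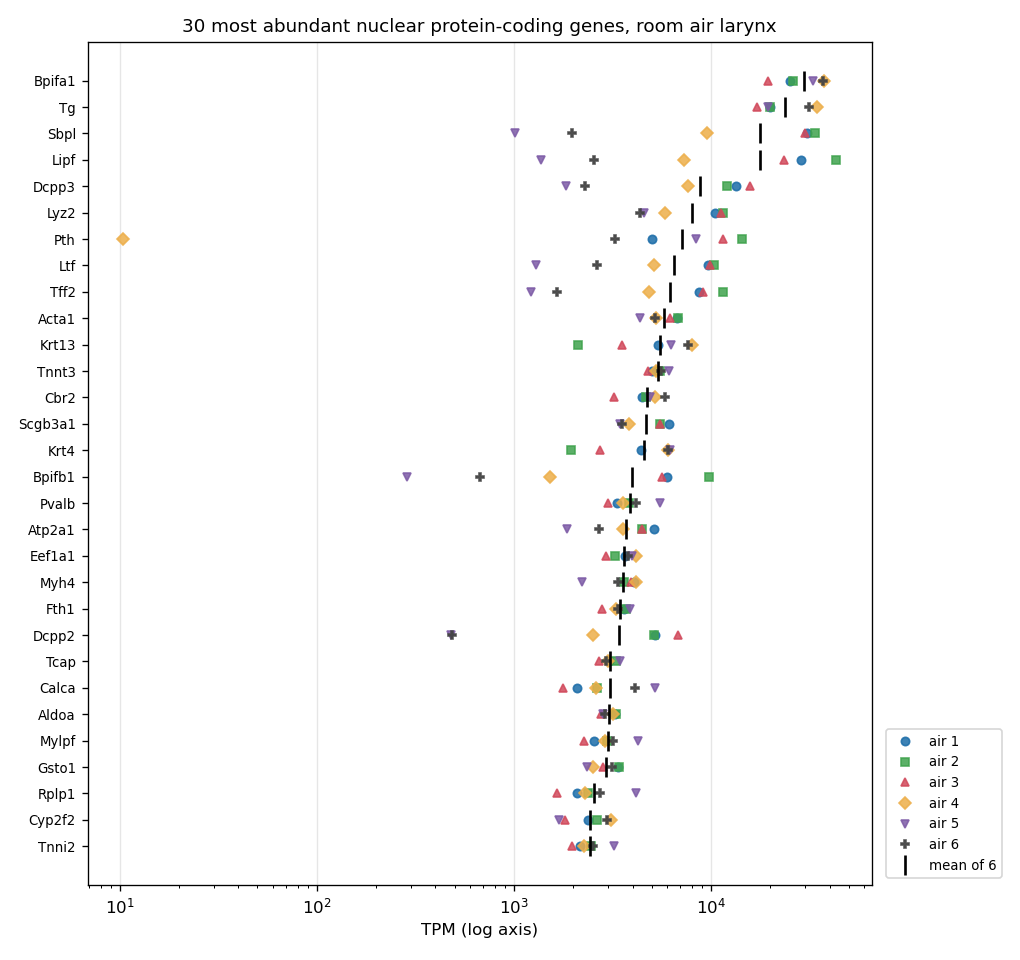
Abundance of the 30 most abundant nuclear protein-coding genes in the 6 air libraries, in TPM on a log axis, with 1 point per library and a bar at the mean. Bpifa1 and Tg lead with narrow spreads. Sbpl, Lipf, Dcpp3 and Bpifb1 are far lower in air 5 and air 6 than in air 1 to air 3, and Pth spreads from 10.4 to 14423 TPM.

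The highest TPM of all belonged to a very short annotated gene, Gm23935 (chr16:11144125-11144181, plus strand, GRCm38, annotated as a miRNA gene). Division by its length of 57 bases raises its TPM far above its share of reads: its counts were 4292, 3552, 67022, 10355, 3954 and 25722 in air 1 to air 6. They gave 13300, 10250, 165246, 33586, 12296 and 80950 TPM. Air 3 and air 6 were far above the other 4 libraries. Because TPM sums to 1 M in each library, these values lower the TPM of every other gene, most in air 3. The sequence of the annotated gene, from the GENCODE M21 annotation on GRCm38, is shown because it takes rank 1 in the baseline. It has 73.7% G or C, and no base is marked by capitals.
Gm23935: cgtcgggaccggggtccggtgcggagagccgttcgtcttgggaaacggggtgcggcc
The annotated ribosomal RNA gene CT010467.1 (chromosome 17, 39846353 to 39848827) was high in the same libraries, with counts of 4821, 4574, 86664, 14330, 6721 and 42500. So was Lars2, which encodes the mitochondrial leucyl-tRNA synthetase, with counts of 2888, 2549, 35483, 6268, 2907 and 17806. The longest exact stretch that Gm23935 shared with CT010467.1 was 8 bases, and with Gm26917 10 bases. Gm23935, CT010467.1, Gm26917 and Gm15564 were singled out after their values were seen, and these 4 loci summed to 0.0507% to 0.911% of counts. The part of ribosomal RNA in the counts of Gm23935 and Lars2 was not tested. With Gm23935 left out, 49 of the 50 most abundant genes remained the same.

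Secretory products of the airway lining were abundant in every air library. The airway secretory list had the highest mean share of the tissue lists, although the gland list exceeded it in air 1, air 2 and air 3, and without division by length the thyroid follicle list did (7.73% of counts, against 3.56%). It held 6.31% ± 0.684 of TPM (SD, n = 6), between 5.30% in air 3 and 7.13% in air 2. In these bulk samples, fewer cells of a type and less RNA per cell cannot be told apart. Bpifa1 (ENSMUSG00000027483, chr2:154142880-154149219) encodes a secreted antimicrobial and surfactant protein of the upper airways. It had 25174, 26220, 19516, 37327, 33002 and 36890 TPM in air 1 to air 6. In TPM, air 4 to air 6 were highest and air 3, where Gm23935 lowers TPM most, was lowest. By CPM, air 3 was lowest in 4 of the 24 airway secretory genes and highest in 11. Scgb3a1, a secretoglobin of the airway surface, averaged 4662 TPM, and Scgb1a1, the classic club cell product, averaged 2410 TPM at rank 40. Cyp2f2, a club cell cytochrome P450, averaged 2432 TPM and Cbr2, an airway carbonyl reductase, 4737 TPM. Bpifb1 and Tff2 of the same list did not share the steadiness of Bpifa1. Bpifb1 had 5966, 9728, 5664, 1530, 285 and 672 TPM and Tff2, a mucus-associated trefoil factor, 8701, 11528, 9089, 4858, 1214 and 1655 TPM, both lowest in air 5 and air 6. The ciliated cell list, by comparison, held 0.199% of TPM (0.109% to 0.281%), and Foxj1, the master regulator of motile cilia, averaged 94.5 TPM.

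Thyroid transcripts came next among the single genes. Tg (ENSMUSG00000053469, chr15:66670753-66850721) encodes thyroglobulin, the precursor of thyroid hormone. It had 19885, 19915, 17145, 34582, 19432 and 31535 TPM. Air 4 and air 6 stood above the other 4 libraries, which lay close together. With the rest of the thyroid follicle list it made up 2.54% ± 0.763 of TPM (SD, n = 6; 1.81% to 3.67%). Iyd, which recycles iodide, averaged 521 TPM, and the thyroid and lung transcription factor gene Nkx2-1 175 TPM. C cell transcripts were present in every air library: Calca (chr7:114631478-114636357), the calcitonin and CGRP gene, had 2099, 2642, 1782, 2602, 5217 and 4095 TPM, and air 5 and air 6 were the high libraries. Scg2, a granin of endocrine secretory granules, had 172, 168, 138, 287, 399 and 355 TPM and Iyd 382, 497, 302, 590, 734 and 622 TPM. For both, air 5 was highest and air 3 lowest in TPM, which Gm23935 lowers most in air 3. By CPM, air 3 was lowest in 2 of 12 C cell and 4 of 13 thyroid follicle genes, and air 1 in 8 and 5. The C cell list as a whole held 0.515% ± 0.142 of TPM (SD, n = 6), and Calca was 59.7% of it.

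The parathyroid list held 0.507%, 1.45%, 1.16%, 0.00202%, 0.844% and 0.327% of TPM in air 1 to air 6. Pth (ENSMUSG00000059077, chr7:113385580-113388570), the parathyroid hormone gene, gave 99.4% of this sum. Pth had 5030, 14423, 11549, 10.4, 8416 and 3248 TPM, so it was near 0 in air 4 and abundant in the other 5 libraries. Air 4 thus held the least Pth and, at 34582 TPM, the most Tg of the 6 libraries.

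As a share of TPM, fast-twitch muscle was steadier than the airway secretory, gland and thyroid sources. The fast skeletal muscle list held 4.90%, 5.00%, 4.42%, 4.65%, 4.72% and 4.47% of TPM, a mean of 4.69% ± 0.229 (SD, n = 6). The 6 libraries lay close together in this sum, air 2 highest and air 3 lowest, where Gm23935 took 165246 TPM of air 3. By CPM, air 3 was highest in 21 of the 32 measured members and lowest in 0. Air 5 was lowest in 16 of them and highest in 8, so members moved in opposite directions there. The even sum in TPM therefore does not mean even levels by CPM. Acta1, skeletal alpha-actin, averaged 5751 ± 971 TPM, Tnnt3, fast troponin T, 5371 ± 468 TPM, and Myh4, the fast type IIB myosin heavy chain, 3563 ± 723 TPM (SD, n = 6 each). Pvalb, the calcium buffer of fast fibres, averaged 3904 TPM, and Atp2a1, their calcium pump, 3711 TPM. Among the myosin heavy chains, the order by mean TPM was Myh4, Myh1 (1059), Myh2 (115), Myh13 (92.7) and Myh7 (1.14), the last being the slow type. The slow muscle list as a whole held 0.00962% of TPM.

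Seromucous gland products were abundant in some air libraries and sparse in others. The gland list held 6.52%, 7.96%, 6.51%, 2.55%, 0.584% and 0.921% of TPM, a mean of 4.17% ± 3.21 (SD, n = 6). Air 1 to air 3 formed the high set, air 4 was intermediate, and air 5 and air 6 were low. Lipf (ENSMUSG00000024768, chr19:33961187-33976810), a lipase of the gastric type, had 28523, 43151, 23580, 7277, 1375 and 2541 TPM. Dcpp3, one of the demilune cell and parotid proteins, had 13406, 12000, 15861, 7610, 1840 and 2291 TPM. Sbpl, a spermine binding protein-like gene that is in no list, followed the order of Lipf, with 30845, 33568, 29871, 9532, 1017 and 1982 TPM. In each of these genes air 5 was lowest and air 6 next.

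Squamous epithelium showed another order. Its list held 1.5%, 0.606%, 1.10%, 2.11%, 2.09% and 2.14% of TPM, lowest in air 2 and close together in air 4 to air 6. Krt13 and Krt4, the keratin pair of non-cornified stratified epithelium, led it. Krt13 had 5406, 2109, 3556, 7979, 6267 and 7619 TPM, and Krt4 4400, 1952, 2746, 6073, 6168 and 6041 TPM. Krt15 of the basal cell list averaged 1769 TPM and Krt5, the basal keratin, 750 TPM.

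Genes that every cell uses made up a further share. Ribosomal protein genes held 3.87% ± 0.992 of TPM (SD, n = 6), from 2.77% in air 3 to 5.68% in air 5, and nuclear genes of oxidative phosphorylation 2.28% ± 0.382, from 1.74% in air 3 to 2.91% in air 5. The 2 lists thus had the same lowest and the same highest library in TPM. By CPM, air 5 was highest in 71 of 76 measured ribosomal protein genes and in 55 of 75 oxidative phosphorylation genes. Air 3 was lowest in only 6 and 5 of them, and air 1 in 29 and 34. Among abundant genes in no list were Fth1, ferritin heavy chain (3444 TPM on the mean), Aldoa, the muscle type aldolase (3031 TPM), and Gsto1, a glutathione transferase (2943 TPM). Anxa1, annexin A1 of squamous and immune cells, averaged 1466 TPM, and Gsn, gelsolin, which severs actin filaments, 1273 TPM.

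Fat and immune cells were minor sources. Cfd, adipsin, a complement factor made by white adipocytes, had 1574, 883, 961, 1371, 1284 and 901 TPM, and Adipoq, adiponectin, 178, 158, 121, 199, 234 and 167 TPM. Ucp1, the uncoupling protein that defines brown fat, had 70.3, 104, 57.2, 102, 107 and 113 TPM, so brown fat transcripts were found in every library. Ucp1 was lowest in air 3 in TPM, which Gm23935 lowers most there. By CPM, air 3 was lowest in 2 of 3 measured brown fat genes and air 1 in 1. Cd74, the invariant chain of class II antigen presentation, lay between 527 and 655 TPM. Igkc, the immunoglobulin kappa constant gene, was less even, with 89.6, 136, 127, 49.7, 20.7 and 14.8 TPM. Air 4 to air 6 were its low libraries, as for the gland genes.

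Mitochondrial genome transcripts held 11.3% ± 1.82 of TPM (SD, n = 6; 8.44% in air 3 to 14.0% in air 5). The protein-coding genes among them differed widely. In mean TPM, mt-Co1 had 35756, mt-Cytb 19638, mt-Nd1 15168, mt-Nd2 10622, mt-Nd4 8116, mt-Nd6 7054 and mt-Nd5 6209. In contrast, mt-Co2 had 438, mt-Co3 436, mt-Atp6 388, mt-Nd4l 133, mt-Nd3 104 and mt-Atp8 102. They are parts of shared polycistronic transcripts, and near-copies of some lie in the nuclear genome. How reads that match several places were counted is not given in the sources used here.

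The label of a larynx was checked against defining markers. Cartilage, the skeleton of the larynx, was weakly represented: its list held 0.142%, 0.0950%, 0.0648%, 0.0479%, 0.0298% and 0.0282% of TPM, with Acan, the aggrecan core protein gene, at 20.8 TPM on the mean and Col2a1, cartilage collagen, at 3.18 TPM. Alveolar lung markers, which the larynx itself should lack, held 0.0433% of TPM, close to the share of smooth muscle; Ager, a receptor gene of alveolar type I cells, led them at 375 TPM on the mean (267 to 498 TPM), while Sftpa1, a surfactant protein gene, had 13.7 TPM. Markers of 4 other tissues were at or near 0: hepatocyte markers held 9.83e-05% of TPM, stomach markers 0.000268%, exocrine pancreas markers 0.000126% and testis markers 9.18e-05%. Smaller sources of the tissue itself were macrophages (0.839%), white adipocytes (0.233%), connective tissue (0.191%), smooth muscle (0.0447%), endothelium (0.0414%) and Schwann cells (0.0360%). Of the macrophage list's TPM, 95.4% was Lyz2, the lysozyme gene of macrophages and of other secretory cells, so that share is nearly that of 1 gene. Lyz2 had 10534, 11527, 11187, 5838, 4573 and 4360 TPM, higher in the 3 libraries rich in gland transcripts. The 34 tissue lists together covered 18.8% to 27.6% of TPM (22.9% ± 3.21, SD, n = 6), so most of the RNA was not placed in a tissue by these markers.

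**Figure D2:**
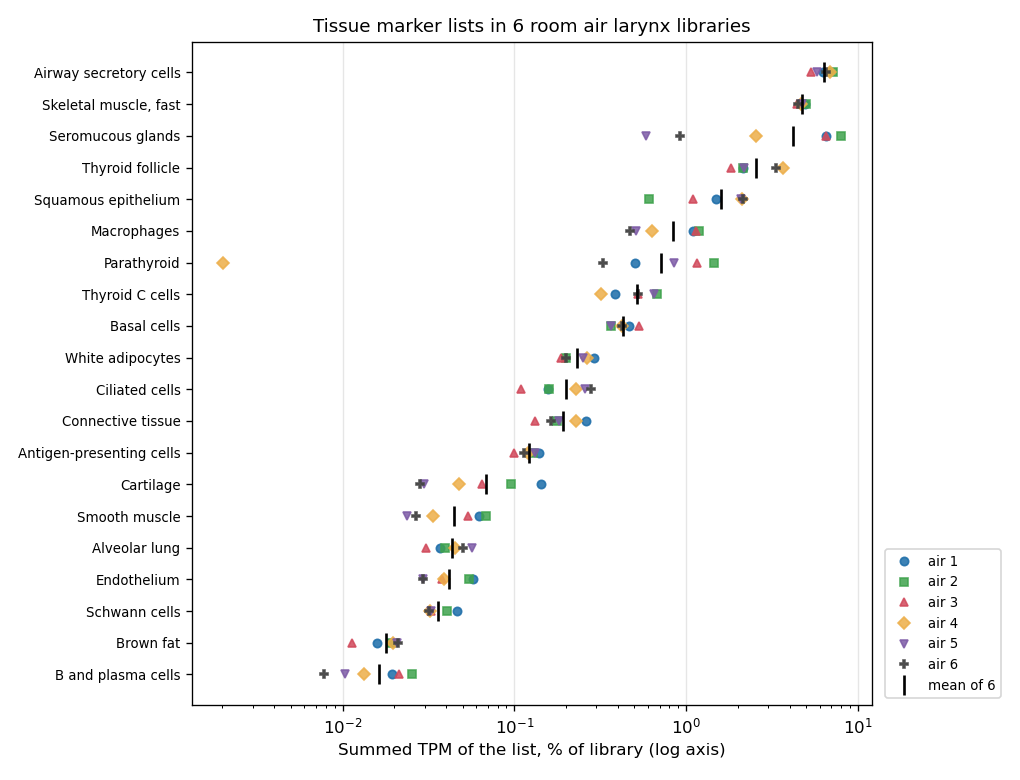
Share of all TPM (percent, log axis) held by each marker list in the 6 air libraries, with 1 point per library. Fast muscle points lie almost on top of each other (4.42% to 5.00%), gland points spread from 0.584% to 7.96%, and the parathyroid point of air 4 lies far below the others at 0.00202%.

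Promoter stretches are shown for abundant genes of 3 sources, each of the 60 bases before the first start listed for the gene, in its own direction, from the RefSeq promoter table on GRCm38.p6; capitals mark TATAAA, searched on the gene's strand from 40 to 20 bases before the start. The motif occurred in that window in 2.13% of the 27025 promoters of the table. The genes shown are Bpifa1 (chr2:154142820-154142879, plus strand) of the airway lining, Sbpl (chr17:23955274-23955333, minus strand), which followed the gland list, and Myh4 (chr11:67237752-67237811, plus strand) of fast muscle.
Bpifa1: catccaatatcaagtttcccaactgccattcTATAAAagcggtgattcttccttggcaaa
Sbpl: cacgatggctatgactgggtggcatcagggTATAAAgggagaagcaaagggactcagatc
Myh4: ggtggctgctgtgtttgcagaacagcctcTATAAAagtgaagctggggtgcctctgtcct
Lipf, Krt13, Eef1a1, Dcpp1, Dcpp2 and Dcpp3 were looked up too and had no TATAAA in that window, so the 3 genes shown are those with a match. A match describes letters only. The Dcpp genes are neighbours on chromosome 17, and in the stretches below capitals mark 42 bases that are identical in Dcpp1 (chr17:23880816-23880875), Dcpp2 (chr17:23898662-23898721) and Dcpp3 (chr17:23917398-23917457), all on the plus strand.
Dcpp1: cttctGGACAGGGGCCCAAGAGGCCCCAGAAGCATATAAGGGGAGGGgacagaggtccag
Dcpp2: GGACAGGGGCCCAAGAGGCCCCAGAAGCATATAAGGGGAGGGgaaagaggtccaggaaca
Dcpp3: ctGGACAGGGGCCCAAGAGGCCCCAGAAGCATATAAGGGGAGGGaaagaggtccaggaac
Where such copies are near-identical in their transcripts too, reads can be split between them, so the division of TPM between Dcpp2 (3433 TPM on the mean) and Dcpp3 (8835 TPM) is uncertain.

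Variation between the 6 air libraries was measured for all 15820 genes that averaged 1 CPM or more. Its size is given as the biological coefficient of variation (BCV), the spread between libraries relative to the mean after counting noise is taken off, with a median of 0.167. Against the trend of variation with abundance, 651 genes (4.12% of those measured) were more variable by edgeR's goodness-of-fit test at a Benjamini-Hochberg adjusted p below 0.05. At the threshold lay Ptgr1 just inside (adjusted p 0.04999, BCV 0.381) and Ubash3b just outside (adjusted p 0.0505, BCV 0.462). Leaving out 1 library at a time gave 478 to 575 such genes. Without air 3 there were 478, of which 431 were among the 651. Air 3 was the highest library in 48.4% of the 651 genes, against 24.5% of all genes measured, and air 5 the lowest in 40.7%, against 26.2%. The called genes were about as abundant as the rest (median 21.7 CPM, against 22.4 CPM) and shorter (median 2941 bases, against 4114 bases).

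**Figure D3:**
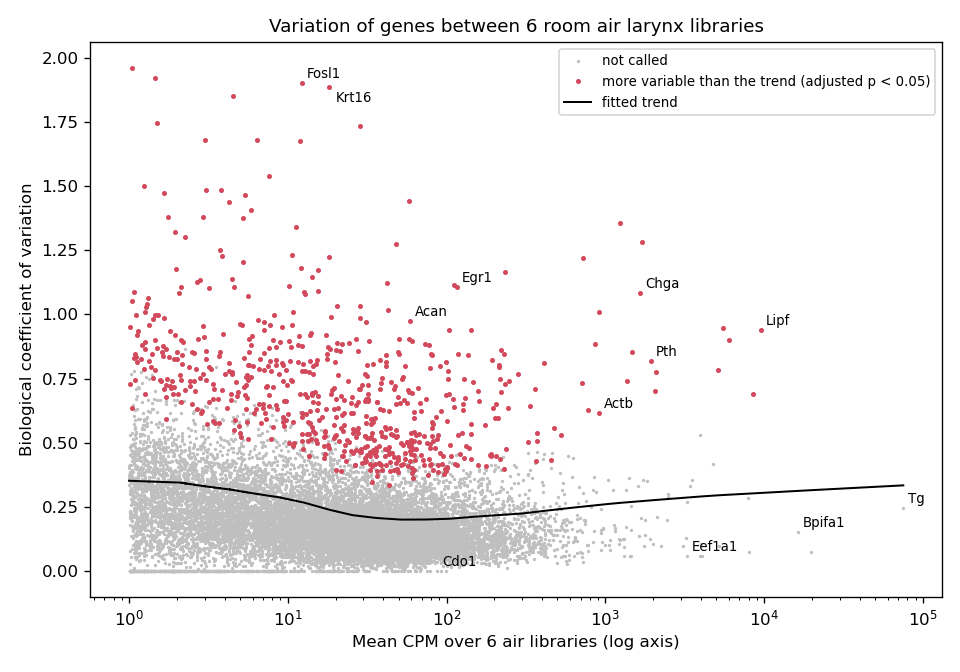
Biological coefficient of variation of each gene (vertical axis) against its mean CPM in the 6 air libraries (horizontal log axis), with genes more variable than the trend marked. The 651 marked genes reach up to 9553 CPM, and the line is the fitted trend. Fosl1 and Krt16 lie at the top, Cdo1 at the bottom, and Tg and Bpifa1 below the line at the far right.

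The 20 most variable genes, with a BCV of 1.03 to 1.90, included Fosl1, Krt16, Plaur, Arc, Tnfrsf12a, Itga5, Smr2, Lars2, Thbs1, Hbegf, Dusp2, Rrad, Egr1, Sphk1, Odam, Chga, Bpifb2 and Rhcg. In 16 of them air 3 was highest and in the other 4 air 2. Fosl1 (ENSMUSG00000024912, chr19:5447703-5455945), an AP-1 transcription factor gene, had 3.94, 1.84, 59.8, 2.57, 2.15 and 3.17 CPM in air 1 to air 6 (BCV 1.90, adjusted p 3.68e-28 by edgeR). Krt16, a keratin of stressed or regenerating epidermis, had 6.93, 4.05, 88.0, 3.31, 3.25 and 3.29 CPM. Both were raised in air 3 alone. Plaur, the urokinase receptor gene, had 10.1, 10.8, 130, 7.72, 6.03 and 7.07 CPM, and Thbs1, thrombospondin 1, 137, 148, 790, 128, 89.6 and 113 CPM. Without air 3, 9 of the 20 were no longer called, among them Fosl1, Krt16, Plaur, Arc, Thbs1, Hbegf and Rrad.

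Immediate early genes, whose transcripts appear within minutes of a stimulus to a cell, were variable as a group: 20 of 26 measured members were called. For this and every list below, the share called over all genes measured was 4.12%. Only 8 were called without air 3, which was the highest library in 20 of the 26, against 24.5% of all genes measured. Arc had 6.75, 5.77, 52.3, 2.76, 1.39 and 2.32 CPM. Egr1, a zinc finger transcription factor gene, had 56.4, 343, 204, 35.6, 24.0 and 37.8 CPM, and Fos 32.2, 107, 44.8, 23.7, 20.1 and 22.5 CPM. Air 2 was thus highest for Egr1 and Fos and air 3 for Arc, while air 4 to air 6 were low for these 3 genes. Gadd45b (BCV 0.105) and Jun (BCV 0.236) were not called. In the heat shock list 3 of 12 members were called (1 without air 3), among them Hspa1b, with 339, 127, 535, 150, 114 and 136 CPM, whose reads can be shared with its near-identical neighbour Hspa1a.

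Gland genes were variable almost without exception, with 18 of 19 measured members called and 16 to 18 when 1 library was left out. In 17 of the 19, air 4 to air 6 were the 3 lowest libraries, an order found in 18.6% of all genes measured. Muc19, the gel-forming mucin of mucous glands, had 25.8, 40.5, 38.0, 5.03, 0.928 and 1.40 CPM. Lyz1, the lysozyme of secretory cells, had 1466, 1488, 2173, 123, 78.2 and 110 CPM. Odam, an odontogenic ameloblast-associated protein gene, had 14.2, 34, 23.0, 2.94, 0.116 and 1.34 CPM. All 3 genes had every one of air 1 to air 3 above every one of air 4 to air 6. Gp2, a glycoprotein of secretory granules that is in no list, was called too (BCV 0.735), with 1110, 1255, 1188, 464, 106 and 182 CPM. Igha, the IgA heavy chain of plasma cells, which in mucosal tissue gather around glands, had 38.9, 39.6, 34.9, 11.5, 1.33 and 2.07 CPM. The B and plasma cell list had 3 of 6 members called.

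Cartilage and smooth muscle had the same libraries low. Of the cartilage list 14 of 21 measured members were called, and 8 without air 1. Air 1 was highest in 17 of the 21, against 13.8% of all genes measured. In 15 of 21 air 4 to air 6 were the 3 lowest, against 18.6% of all genes measured. Acan had 147, 86.1, 86.6, 18.5, 6.20 and 7.31 CPM (BCV 0.974), Col2a1 30.2, 13.2, 7.74, 5.52, 4.17 and 2.99 CPM, and Matn1, a cartilage matrix protein gene, 25.2, 22.8, 16.2, 3.31, 1.45 and 2.07 CPM. Of the smooth muscle list 5 of 11 were called, and all 11 had air 4 to air 6 lowest. Acta2, smooth muscle actin, had 150, 192, 172, 50.8, 21.4 and 30.3 CPM, and Cnn1, calponin, 39.8, 46.5, 58.1, 9.32, 3.31 and 3.60 CPM. Connective tissue gave no stable count: 5 of 27 were called, 0 without air 1 or without air 6, and 12 without air 3. Gland, cartilage and smooth muscle markers were low together in air 4 to air 6. They were not alone: air 4 to air 6 were also the 3 lowest in 13 of 18 endothelium and 9 of 12 Schwann cell genes. The part of tissue content in that order was not tested.

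Squamous genes varied in an order unlike that of the gland genes. Of 28 measured members 18 were called, 9 without air 2 and 12 without air 3. Air 2 was the lowest library in 22, against 16.2% of all genes measured. The highest library was air 3 in 11 of the 28, against 24.5% of all genes measured. In 9 of the 28 air 4 to air 6 were the 3 highest, an order found in 16.2% of all genes measured. The ciliated list had this order in 31 of 38 genes. Rptn, repetin of the cornified layer, had 166, 18.1, 82.7, 493, 486 and 452 CPM. Krtdap, a keratinocyte differentiation-associated protein gene, had 117, 22.1, 89.2, 252, 474 and 330 CPM, and Dsg1a, a desmosomal cadherin gene, 6.18, 0.298, 2.60, 27.4, 17.6 and 19.4 CPM. Air 2 was lowest and air 4 to air 6 were highest for these 3 genes, of which Rptn and Dsg1a were chosen after their values were seen. Krt6a, a keratin induced in stressed epithelium, was among those highest in air 3 (195, 119, 514, 123, 88.5 and 129 CPM). Krt13 had 3481, 1390, 3075, 4817, 3733 and 4713 CPM and was not called (BCV 0.355, adjusted p 0.696 by edgeR).

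**Figure D4:**
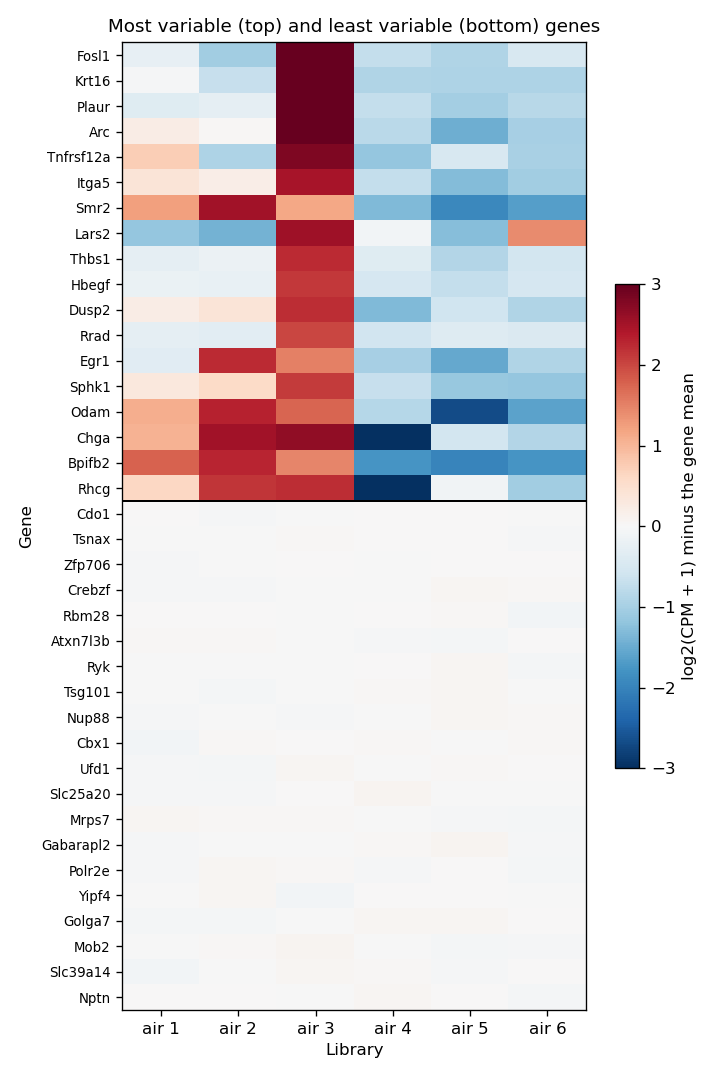
Level of genes among the 20 most variable (top) and of the 20 least variable genes (bottom) in the 6 air libraries, as log2(CPM + 1) minus the gene's mean over the 6 libraries, with the colour scale ending at -3 and 3. Air 3 stands out for Fosl1, Krt16, Plaur and Thbs1, air 4 for low Chga and Rhcg, and air 4 to air 6 for low Smr2, Odam and Bpifb2, while the bottom genes show almost no colour.

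Parathyroid genes were called in 3 of 4 cases, in each fit without 1 library as well. Kl, klotho, the co-receptor for FGF23, had 33.7, 95.2, 101, 0.797, 16.1 and 12.0 CPM (adjusted p 6.06e-38 by edgeR). Gcm2, the transcription factor that specifies the gland, had 16.9, 35.2, 40.6, 0.123, 12.2 and 6.34 CPM. Casr, the calcium-sensing receptor gene, had 18.0, 30.3, 44.4, 14.7, 17.8 and 21.8 CPM and was not called; C cells express it too. Chga, chromogranin A, is a granule protein of C cells and of parathyroid chief cells, and had 1321, 3708, 4096, 22.0, 443 and 351 CPM (BCV 1.08, adjusted p 3.11e-28). Like Pth and Kl it was lowest in air 4, where Calca was not low. Rhcg, an ammonium transporter gene, followed the same order, with 21.5, 63.4, 66.8, 0, 12.5 and 6.09 CPM.

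Among lists not counted above, the airway secretory list had 8 of 24 members called (5 to 7 without 1 library) and the basal list 5 of 17 (1 to 4). The endothelium list had 4 of 18 (3 to 5) and the Schwann cell list 3 of 12 (2 to 3), against 4.12% of all genes measured. In the lists that follow few or no genes exceeded the trend, which does not show that their levels were even. No member of the thyroid follicle list was called out of 13 (2 without air 5; 3 at an unadjusted p of 0.05), although Pax8 and Hhex, thyroid transcription factor genes, were lowest in air 3 at 48.2 and 14.2 CPM. In the fast muscle list 1 of 32 was called. That was Myh13, the superfast myosin of extraocular and laryngeal muscle, with 288, 322, 387, 278, 9.57 and 16.6 CPM (BCV 0.749, adjusted p 6.55e-32 by edgeR). It was low in air 5 and air 6 only, where the fast muscle list as a whole held 4.72% and 4.47% of TPM. No member was called by edgeR's goodness-of-fit test among the 76 measured ribosomal protein genes (0), 75 nuclear genes of oxidative phosphorylation (0), 22 mitochondrial genes (1), 16 interferon-response genes (3), 15 clock genes (1), 11 macrophage genes (2) and 10 cell cycle genes (2), where the numbers in parentheses are those past an unadjusted p of 0.05. In the ciliated list 2 of 38 were called, and air 6 was the highest library in 27, against 12.6% of all genes measured. Air 4 to air 6 were its 3 highest libraries in 31 of the 38, against 16.2% of all genes measured.

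Among protein-coding genes of at least 50 CPM, the 20 steadiest were Cdo1, Tsnax, Zfp706, Crebzf, Rbm28, Atxn7l3b, Ryk, Tsg101, Nup88, Cbx1, Ufd1, Slc25a20, Mrps7, Gabarapl2, Polr2e, Yipf4, Golga7, Mob2, Slc39a14 and Nptn. Their BCV was 0 to 0.0160, and highest over lowest library was 1.04 to 1.11. Cdo1, cysteine dioxygenase, ranged over 85.9 to 89.1 CPM, Tsnax, a partner of translin in RNA processing, over 89.8 to 93.7 CPM, and Zfp706, a zinc finger protein gene, over 95.9 to 100.04 CPM. These 3 were the genes called less variable than the trend (0.019% of those measured), with 3218 genes past an unadjusted p of 0.05. With DESeq2 size factors 0 genes were called. The 20 genes were picked as the extreme of this very measure, and in libraries that did not pick them they were less steady. Their median BCV was 0.0716 in smoke libraries (0.0142 to 0.143) and 0.102 in e-cigarette libraries (0.0166 to 0.215), against medians over all genes of 0.116 in smoke and 0.141 in e-cigarette libraries.

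Reference genes of quantitative PCR differed in steadiness within air. Of the 18 examined, 12 had a BCV at or below the median of all genes. Eef1a1, a translation elongation factor gene, had a BCV of 0.0582 (2953 to 3492 CPM), Pgk1 of glycolysis 0.0780 and the general transcription factor gene Tbp 0.0850. Gapdh and Hprt each had 0.125, and Ppia, cyclophilin A, 0.217. Actb, cytoplasmic actin, was called more variable (BCV 0.615, adjusted p 0.0225 by edgeR), from 526 CPM to 2019 CPM in air 3. It was not called without air 3 or without air 6. Its BCV was 0.125 in smoke libraries and 0.152 in e-cigarette libraries.

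**Figure D5:**
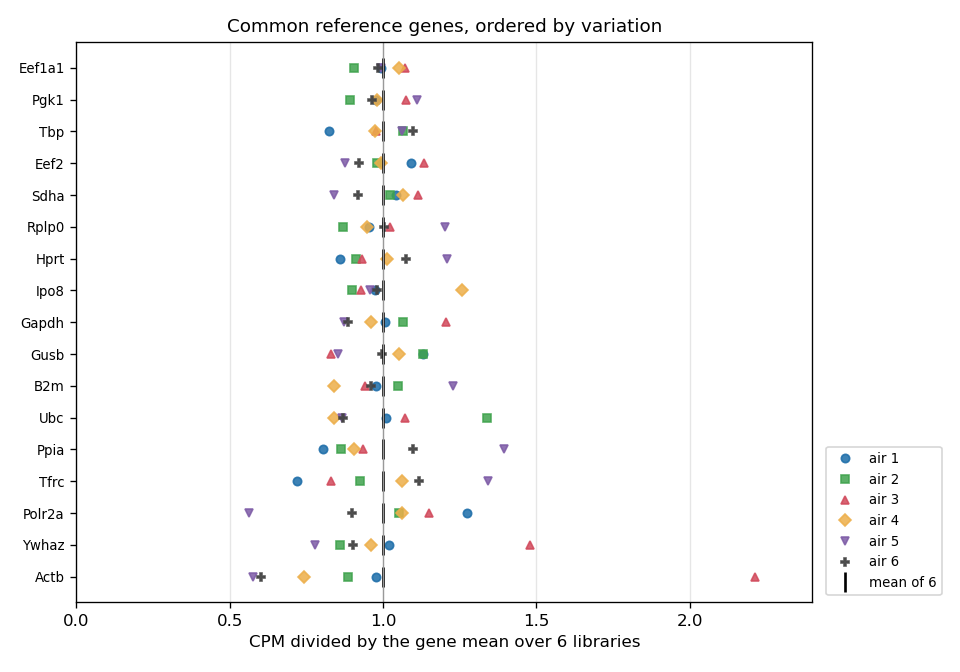
Level of common reference genes in the 6 air libraries, as CPM divided by the gene's mean over the 6 libraries, with 1 point per library and genes ordered from the least to the most variable. Eef1a1 points lie closest to 1, and air 3 stands far to the right for Actb (2019 CPM) and Ywhaz (444 CPM).

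Variation of the same genes was then read in the exposed libraries, which did not choose them. Of the air-variable genes measured in both groups, 233 of 615 (37.9%) were also more variable than the trend in smoke libraries, where 3.65% of all genes were, and they were 41.7% of the genes called there. In e-cigarette libraries it was 231 of 607 (38.1%), where 3.82% of all genes were, and they were 40.5% of the genes called there. In all 3 groups 182 of the 15252 genes measured in each were called (1.19%). Among them were 11 of 27 squamous, 7 of 21 cartilage, 4 of 19 gland, 3 of 5 B and plasma cell and 2 of 3 bone genes, but 0 of 25 immediate early genes. The 20 most variable genes of air had a median BCV of 0.238 in smoke libraries and 0.343 in e-cigarette libraries, with 6 of them called in each.

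The most abundant genes of the baseline were last compared with the exposed groups in 1 edgeR quasi-likelihood fit of the 18 libraries; both comparisons share the 6 air libraries. In smoke against air, 1.59% of 17537 tested genes were called, and of the 50 most abundant genes 1 was. This was Bpifa1, which was lower after smoke. Its level was 7706 to 11321 CPM (median 9629) in smoke libraries, against 13414 to 18886 CPM (median 15131) in air libraries, on the scale of all 18 libraries. The groups did not overlap, and the log2 fold change was -0.73 (adjusted p 0.0239). It was not called without air 5 (-0.72), without air 6 (-0.70) or with the replicate number as a block (-0.72). The median log2 fold change was 0.07 over the 50 genes and 0.01 over all genes.

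In e-cigarette against air, 25.1% of the tested genes were called, and 25 of the 50 most abundant, 23 higher and 2 lower. Higher were 8 of the 9 mitochondrial genes, 8 of the 11 fast muscle genes and 3 of the 6 gland genes, among them mt-Co1 (log2 fold change 0.52, adjusted p 0.0024), the muscle enolase gene Eno3 (0.67, adjusted p 0.0003), Lyz2 (1.09, adjusted p 0.0078) and Dcpp3 (1.68, adjusted p 0.0204). Lower were Pth (-9.62) and Calca (-4.42). Pth had 0 to 6.03 CPM in e-cigarette libraries and 2.39 to 3752 CPM in air libraries, so its groups overlapped at the lowest air library. Tg had 84.1 to 28611 CPM in e-cigarette libraries, against 54858 to 99259 CPM in air libraries. The groups did not overlap, yet it missed the threshold in edgeR (-2.88, adjusted p 0.0636). Without e-cigarette 2, 4, 5 and 6, 2 of the 50 genes and 688 of all genes were called; the part of the smaller group in this drop was not tested. The 644 air-variable genes that were tested were called in 1.71% of cases in smoke and in 29.0% in e-cigarette libraries, close to the shares over all genes. Of the 18 reference genes, 1 was called in smoke (Sdha, 0.36) and 6 in e-cigarette libraries: Gapdh (0.57), Sdha (0.45), Pgk1 (0.30) and Tfrc (0.65) were higher, and B2m (-0.34) and Actb (-0.71) lower.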

How the data were processed

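Messenger RNA libraries of whole mouse larynx were made from 1 µg of total RNA with an NEBNext Ultra kit, per the labels' protocols; this kit does not mark strand. STAR (no version given), featureCounts 1.5.0-p3 and the builds GRCm38 and mm10 are named per the submitters' processing notes. No source used here gives the annotation release or the strand setting, so a gene and its antisense partner, overlapping genes and near-identical copies (Dcpp, Smr, Hspa1a and Hspa1b) cannot be told apart with certainty. The authors deposited raw counts as whole numbers, with a gene length, a deposited value in bases that equals the exon length of GENCODE M21 for 98.0% of the identifiers shared with it. Every column was mapped to a sample by its name (0 left unused).

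TPM was computed from these counts and lengths, and marker lists (44, of which 34 mark tissues) were summed. Variation was tested in edgeR 4.0.16 (R 4.3.3): TMM scaling of the 6 air libraries, genes of at least 1 CPM on the mean, trended dispersion, and the genewise goodness-of-fit deviance on 5 degrees of freedom with Benjamini-Hochberg adjustment. The same step was run on each exposed group. Exposed groups were compared with air in 1 quasi-likelihood fit of 18 libraries (filterByExpr, minimum count 10, minimum total 15; 17537 genes), and CPM beside its fold changes are on the scale of all 18. "Called", "higher" and "lower" beside an adjusted p mean that it is below 0.05. DESeq2 1.42.0, other scalings, filters, denominators and the leaving out of libraries were alternatives. Other steps used Python 3.11.15, pandas 2.3.3 and numpy 2.4.6.

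The libraries, lists, tests and rules were chosen with earlier results of these data known. Named genes were the 30 most abundant nuclear protein-coding genes, 13 protein-coding mitochondrial genes, the 20 most variable (at least 10 CPM) and 20 least variable (at least 50 CPM) protein-coding genes, up to 3 of the most abundant members per list, and fixed genes; a few of these are not reported here. Chosen after their values were seen were Kl, Muc19, Dsg1a, Rptn, Matn1, Cnn1, Fos, Gadd45b, Jun, Hspa1b, Gp2, Lyz1, Myh13, Pax8, Hhex, Krt6a, Myh1, Myh2, Gm23935, CT010467.1, Gm26917, Gm15564, Anxa1, Gsn, Ptgr1, Ubash3b and the further genes of the closing section (Atf3, Ivl, Chil4, Areg, Calcb, Comp, Egr3, Krt17 and Myc).

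The labels do not say that libraries are separate animals, so the p-values reflect no more than the spread of these samples, which may be technical. Pairs of air libraries differed by more than counting noise (chi-square divided by its degrees of freedom was 15.4 to 134 in 15 pairs). On simulated counts for 15820 genes the variation test recovered 34% of genes at 4 times and 98% at 16 times the trended dispersion, and 0% of genes made less variable. The smoke against air test recovered 76% of 2-fold and 96% of 4-fold changes over 17353 genes. A comparison of promoters over gene sets was void, since 74.8% of variable coding genes had a RefSeq promoter, under the 80% required.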

Additional observations from a re-analysis of the deposited data

Results flagged for a closer look

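In groups of 6, a value is listed here when its gap to the next library exceeded 0.625 of the group's range (Dixon's 95% limit). Of 274 values examined in air, 47 did; chance alone gives about 1 in 20, and many of these genes move together or were named for their variation, so the number is no count of independent events. Values are CPM unless a share is named.

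Most of them were the highest value of air 3. Among genes of stimulus response and tissue stress these were Fosl1 (59.8), Arc (52.3), Dusp2 (358), Klf6 (365), Atf3 (60.5), Areg (28.2), Egr3 (31.3), Myc (84.7), Hbegf (139), Sphk1 (48.5), Rrad (33.4), Plaur (130), Thbs1 (790), Tnfrsf12a (227) and Itga5 (172). Among epithelial genes they were Krt16 (88.0), Krt17 (468), Krt6a (514), Ivl (11.1) and Anxa1 (2396). The remaining values of air 3 were Actb (2019), Ywhaz (444), Calcb (22.8), Myh7 (7.67), Ubash3b (61.7), Gm23935 (4473) and Gm26917 (109). The circadian clock list was lowest in air 3, at 0.0511% of TPM. By CPM, air 3 was the lowest library in 5 of its 15 measured members, against 21.9% of all genes measured.

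Air 5 was set apart upward for mt-Cytb (9269), mt-Nd1 (6183), mt-Nd2 (4413), mt-Nd4 (4815), the ribosomal protein genes Rplp1 (676) and Rps15 (455), the fast myosin light chain gene Mylpf (1477), the antigen presentation gene H2-Aa (178) and Chil4 (21), a chitinase-like protein gene. Chil4 had 0.187, 0, 0.0667, 0.490, 21 and 5.24 CPM in air 1 to air 6, so air 6 was raised as well. Air 1 was highest for Col2a1 (30.2), Comp (90.4) and Stmn2 (6.12), and air 2 for Jun (196), Fos (107) and the slow muscle list (0.0137% of TPM). Air 4 was highest for Ipo8 (56.3), Phex (10.1) and Slc25a20 (61), and air 6 was lowest for Rbm28 (49.1). Rbm28 and Slc25a20 are among the 20 least variable genes, where a small gap fills most of a narrow range.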

How the results depend on the processing

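No called value changed sign, but the order of the tissue sources did. Without division by length, the 50 most abundant genes held 25.6% of the total and 755 genes held 50% of it. On that scale the thyroid follicle list held 7.73%, while fast muscle had 4.29%, airway secretory 3.56% and the mitochondrial genome 4.85%, so thyroid came first of these tissue lists and airway secretory last. Tg is a long transcript, so this scale gives it more weight by construction. With mitochondrial genes left out, the shares were 32.5% (310 genes for 50%), 5.29% for fast muscle and 7.12% for airway secretory; fast muscle had 5.16% of coding genes alone and 4.96% without Gm23935. These denominators are smaller by construction. Genes more variable than the trend numbered 432 at a mean of at least 10 CPM, and, in fits added after seeing the data, 300 without air 4 to air 6 and 108 without air 1 to air 3, with fewer genes or samples in each. Genes less variable numbered 0 with DESeq2 size factors or library totals, 5 at a mean of at least 10 CPM, 140 against a common dispersion and 0 to 3 without 1 library, so this call depends on the setting.

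Genes called in smoke against air numbered 279 as reported, 970 with DESeq2, 184 with no filter, 109 with 2 groups only, 50 to 562 without 1 air library (50 without air 5, 562 without air 2) and 451 without air 4 to air 6. Of the 50 most abundant genes, 2 were called with DESeq2, 0 to 2 without 1 air library and 0 without air 4 to air 6. E-cigarette against air gave 688 and 2 of 50 without e-cigarette 2, 4, 5 and 6. With the replicate number as a block, smoke gave 39 genes and 0 of the 50, and e-cigarette 3836 and 21. Deviations of same-numbered samples correlated at -0.29 to 0.12 for smoke and air and at -0.31 to -0.02 for e-cigarette and air, with 0 of 6 best with their own number, so the samples share only a number. The cause of these moves was not tested. Depth of 15.6 to 17.1 M counts limits genes near 1 CPM, where counting noise covers most of the spread.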

Other observations

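Genes of different length were not scaled alike between the air libraries. With genes of at least 10 CPM in 5 groups by length, the median log2 level relative to the mean of the 6 libraries was 0.08 for the shortest and -0.10 for the longest genes in air 5, and -0.09 for the shortest and 0.09 for the longest in air 4. The short ribosomal protein genes and the long Tg transcript lie at opposite ends of this scale, and its part in their values was not tested.

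By annotated class, protein-coding genes held 91.1% ± 6.12 of TPM and miRNA genes 5.52% ± 6.18 (SD, n = 6); the miRNA share ran from 1.25% to 16.8%. Air 3 had the lowest coding share, 80.1%. Of the 651 genes more variable than the trend, 121 were in a marker list and 530 in none, so the sources named by the lists describe a minority of them.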
